A study of Homo sapiens with 10 samples.

Results

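Kuramochi persister cells at 320 µM olaparib were compared with Kuramochi persister cells at 10 µM olaparib. Kuramochi is a line of human high-grade serous ovarian carcinoma that carries a mutated BRCA2 gene, and olaparib blocks the enzymes PARP1 and PARP2. Persister cells were drug-naive cells that survived 9 days in the drug, and they were identified by the condition and pool written in each deposited cell name. The comparison held 1911 of the 13800 cells of the series, 742 and 606 at 320 µM and 300 and 263 at 10 µM in pools 1 and 2. Both pools also held populations adapted to growth at 320 or 10 µM, and untreated drug-naive control cells, which stand beside the results as the drug-free level. All are the same line, so every group shares the BRCA2 mutation, and the labels give the 2 pools as replicates without saying that they came from separate cultures.

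Trapping of PARP enzymes on DNA leaves breaks that cells lacking BRCA2 cannot mend by homologous recombination. Broken or mislocalised DNA is sensed by cGAS, which signals through STING to the kinases and transcription factors that switch on interferon and NF-kB genes, while viral-type RNA is sensed by RIG-I and MDA5. Interferon receptors signal through JAK kinases to transcription factors that bind the interferon-stimulated response element (ISRE) and raise a large set of effector genes. The integrated stress response is a separate programme in which the factor ATF4 raises amino acid synthesis and transport genes.

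Counts were unique molecular identifiers (UMIs), summed over the cells of 1 condition in 1 pool, giving 2 sums per dose. The sums held 8302810 and 8082859 UMIs at 320 µM, against 3532281 and 3745019 at 10 µM. Median UMIs per cell were 11154.5 and 13034.5 at 320 µM and 12099.5 and 15213 at 10 µM. The share of UMIs from ribosomal protein genes was 25.7% in each sum at 320 µM, against 13.7% and 14.6% at 10 µM. The epithelial markers PAX8, KRT8 and KRT18 were present in all 4 sums, with KRT8 at 857 and 827 CPM at 320 µM and 917 and 744 CPM at 10 µM, whereas the epithelial cadherin CDH1 had at most 2.64 CPM in any of them. Of the other markers in this list of 10, SOX17 had at least 93.6 CPM and MECOM at least 22.4 CPM in each sum. EPCAM had at most 6.49 CPM in any sum, and KRT7, KRT19 and WT1 had at most 5.36 CPM at 320 µM. Of 18 leukocyte markers, 6 had 0 UMIs in all 4 sums (CD3D, CD3E, CD2, MS4A1, NKG7 and CD48). The 18 summed to 15.4 and 11.4 CPM at 320 µM and 28.9 and 27.9 CPM at 10 µM. Among them CD14 had 0.46 and 0.70 CPM at 320 µM and 11.3 and 6.97 CPM at 10 µM. CD68 had 3.21 and 1.86 CPM at 320 µM and 11.1 and 13.7 CPM at 10 µM. In control sums both had at most 0.72 CPM. CORO1A went the other way, with 9.86 and 7.33 CPM at 320 µM and 4.90 and 5.53 CPM at 10 µM. The source of these transcripts was not tested. No barcode was shared by persister cells of the 2 pools. Gene levels are CPM (counts scaled to a common total) after scaling with trimmed mean of M-values, and changes are log2 changes of 320 µM over 10 µM with their standard error (SE), tested with edgeR's quasi-likelihood test with Benjamini-Hochberg adjustment over 13330 genes.

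The doses differed broadly. At an adjusted p under 0.05, 3367 genes (25.3%) were higher and 3257 (24.4%) were lower at 320 µM, and the median log2 change of all tested genes was 0.03. At least 2-fold differences were fewer upward, with 958 genes (7.19%) higher and 1370 (10.3%) lower. Each count of list members below is read against these shares. In 5068 tested genes both 320 µM sums lay above both 10 µM sums, and in 4579 both lay below, so a lack of overlap was common.

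Transcripts of the interferon system were mostly lower at 320 µM than at 10 µM, in sensors as in effectors. All 47 interferon effectors, genes that carry out the antiviral state, fell by at least 2-fold, with a median log2 change of -4.41 and a range of -8.32 to -1.67. Their summed level was 1264 and 1257 CPM at 320 µM, against 27547 and 26182 CPM at 10 µM and 1849 and 1840 CPM in control cells. With 3 members of very few UMIs set at their bound, the median was -4.39. Such members, here and in the lists below, could pass the filter through the 10 µM sums alone. They could then only be lower at 320 µM.

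ISG15, a ubiquitin-like modifier (GRCh38 chr1:1001138-1014540), had 153 and 144 CPM in the 320 µM sums, against 5999.8 and 5596 CPM in the 10 µM sums. Control sums had 176 and 184 CPM, so the 320 µM sums lay below both. The log2 change was -5.29 ± 0.05 (SE, n = 2 sums a dose, edgeR, Benjamini-Hochberg adjusted p = 1.5e-34). IFI6, a mitochondrial and endoplasmic reticulum protein that limits apoptosis and virus replication, had 127 and 128 CPM at 320 µM and 5249 and 5071 CPM at 10 µM (log2 change -5.33 ± 0.05). IFI27, a mitochondrial interferon-induced protein, had 169 and 159 CPM at 320 µM and 4289 and 4151 CPM at 10 µM (log2 change -4.68). For these 3 genes no sum of one dose overlapped a sum of the other, as in 4579 of 13330 tested genes in this direction. MX1, a GTPase that blocks viral nucleoproteins, had 3.67 and 3.49 CPM at 320 µM, against 564 and 513 CPM at 10 µM and 11.4 and 10.6 CPM in control.

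Members of the OAS family, which make the messenger that activates RNase L, moved the same way. OAS1 had 1.26 and 1.16 CPM at 320 µM and 276 and 263 CPM at 10 µM, a log2 change of -7.79 ± 0.13. The iron-sulfur enzyme RSAD2, which makes an antiviral nucleotide, had 3 and 4 UMIs at 320 µM and 566 and 375 UMIs at 10 µM, so that 10 µM stood 289 times higher with an exact 95% counting interval of 140 to 722. Counting intervals such as this one cover sampling of UMIs only. IFITM3, which stops viruses entering from endosomes, differed less, with 73.7 and 80.1 CPM at 320 µM against 1276 and 1267 CPM at 10 µM (log2 change -4.05). LGALS3BP, a secreted glycoprotein, made the smallest change of the effectors, with 128 and 133 CPM at 320 µM and 429 and 404 CPM at 10 µM.

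Promoters of ISG15, IFI6, IFI44L and B2M, picked from the genes with a match, are shown because the pathway named above acts through a DNA motif. The stretches are from RefSeq on GRCh38.p14, read 5′ to 3′ on the gene's strand, with the ISRE core in capitals and 25 bases on each side.
ISG15 (chr1:1013365-1013424, plus strand): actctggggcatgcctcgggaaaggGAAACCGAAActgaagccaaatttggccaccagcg
IFI6 (chr1:27672251-27672310, minus strand): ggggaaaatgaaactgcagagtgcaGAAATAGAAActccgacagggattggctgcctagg
IFI44L (chr1:78620350-78620409, plus strand): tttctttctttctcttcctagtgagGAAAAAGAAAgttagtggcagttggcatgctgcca
B2M (chr15:44711354-44711413, plus strand): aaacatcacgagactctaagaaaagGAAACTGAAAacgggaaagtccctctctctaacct
The letters searched were GAAANNGAAA on either strand, in windows of 250 bases before to 50 after a gene's start, and no printed match overlapped the NF-kB or C/EBP-ATF letters. The capitals mark the match nearest the start, and the windows of ISG15, IFI44L and B2M hold 2 matches each and that of IFI6 holds 3, so further matches, some overlapping the capitals, are not marked. Of the 47 interferon effectors 37 matched a window, and 28 of these (75.7%) held the letters, as did 413 of 10474 tested genes with a window (3.94%). For genes of class I antigen presentation the share was 11 of 15 (73.3%). A match describes the sequence and is not evidence of binding in these cells.

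Most transcripts of sensors and adaptors were lower too, and signalling through them was not measured. Of 13 tested nucleic acid sensors and adaptors 12 fell and 1 rose, with a median of -3.03. DDX58, which encodes the RNA sensor RIG-I, had 10.4 and 11.9 CPM at 320 µM and 272 and 249.9 CPM at 10 µM (log2 change -4.55). IFIH1, which encodes the RNA sensor MDA5, had 8 and 3 UMIs at 320 µM and 369 and 391 UMIs at 10 µM. The gene for STING, listed as TMEM173, had 14.4 and 16.2 CPM at 320 µM, against 129 and 122 CPM at 10 µM and 26.7 and 27.4 CPM in control (log2 change -3.03 ± 0.09). IFI16, a DNA sensor, had 11.9 and 8.73 CPM at 320 µM and 236 and 222 CPM at 10 µM. The enzyme CGAS was rare at both doses, with 1.72 and 0.815 CPM at 320 µM and 7.22 and 5.05 CPM at 10 µM (log2 change -2.25 ± 0.37). MAVS, the adaptor through which RIG-I and MDA5 signal, was the member that rose, by a log2 change of 0.52.

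Among 11 interferon transcription factors and kinases 9 fell, with a median of -1.31. IRF7, which drives production of type I interferons, had 8.48 and 8.50 CPM at 320 µM and 91.8 and 95.9 CPM at 10 µM. IRF3, its constitutive relative, differed less, with 29.5 and 30.4 CPM at 320 µM and 67.3 and 64.2 CPM at 10 µM (log2 change -1.13).

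Ligands and receptors moved less than their targets. Of 15 written members 8 were tested, and 4 of those fell (2 without the 10 µM sum of pool 1). Tested members changed by -3.26 to -0.01, with a median of -0.77. IFNB1, the interferon beta gene, had 1 and 2 UMIs at 320 µM, under the floor of 3 UMIs, and 2.32 and 1.20 CPM at 10 µM. These units differ: 3 UMIs were worth 0.36 and 0.37 CPM in the 320 µM sums. Both 320 µM sums of IFNB1 thus lay below both 10 µM sums, on very few UMIs. IFNAR1, a chain of the type I interferon receptor, had 32.6 and 32.0 CPM at 320 µM and 33.0 and 32.0 CPM at 10 µM (log2 change -0.01 ± 0.14, edgeR, Benjamini-Hochberg adjusted p = 0.97). IFNGR1, a chain of the interferon gamma receptor, fell to 46.3 and 41.1 CPM at 320 µM, against 132 and 105 CPM at 10 µM. Of 7 negative regulators 4 fell, with a median of -1.45, or -1.11 with its thinly counted member at the bound. USP18, which removes ISG15 from proteins and blocks the receptor, averaged 8.13 ± 2.61 CPM at 320 µM and 134 ± 5.44 CPM at 10 µM (SD, n = 2), and SOCS3, an inhibitor of JAK kinases, changed by only -0.80.

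**Figure D1:**
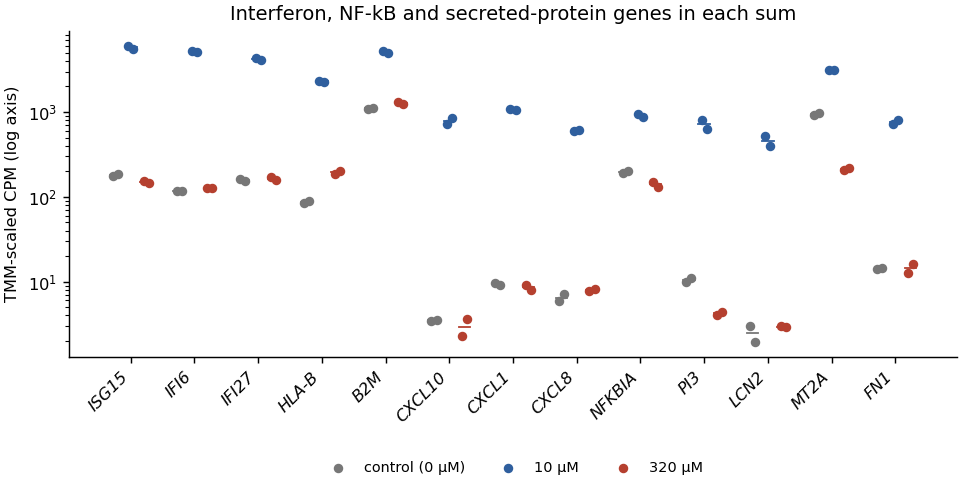
Level of 13 interferon, class I, NF-kB and secreted-protein genes in each sum, in TMM-scaled CPM on a log axis, for control (grey), 10 µM (blue) and 320 µM (red) cells, 2 sums each, with a bar at the mean. For every gene shown both 320 µM sums lie below both 10 µM sums, and for genes including ISG15, NFKBIA and MT2A they also lie below both control sums.

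The difference was carried by nearly every cell. Cells were thinned to 3000 UMIs each, and the interferon effectors then gave a median of 4 UMIs per cell in both 320 µM sums, against 90 and 84.5 in the 10 µM sums and 5 in both control sums. Of the 10 µM cells 272 of 273 in pool 1 and 235 of 238 in pool 2 lay above 8.4 effector UMIs, the 95th percentile of 320 µM cells. None of 727 and 586 cells at 320 µM reached above the median 10 µM cell, and the highest had 16 UMIs. ISG15 was detected in 35.1% and 38.6% of thinned 320 µM cells, against 98.2% and 98.3% of 10 µM cells and 40.6% and 40.7% of control cells. A share near that of control can include free RNA in the droplets, which was not measured.

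**Figure D2:**
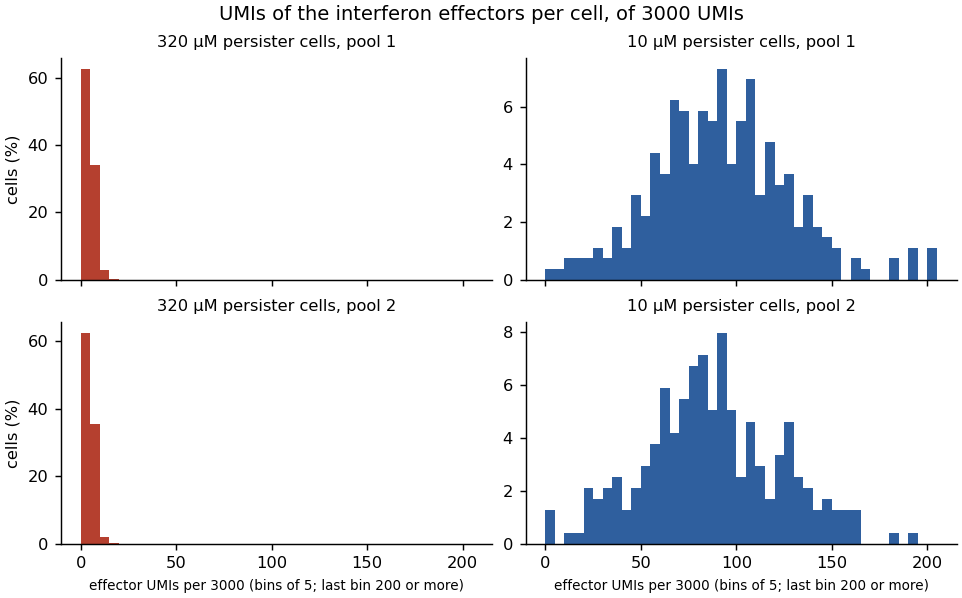
Share of cells (%) against UMIs of the 47 interferon effectors in a cell thinned to 3000 UMIs, in bins of 5, for 320 µM cells (left, red) and 10 µM cells (right, blue) of each pool, on separate vertical scales. The 320 µM cells sit at the low end with a median of 4, and the 10 µM cells spread around medians of 90 and 84.5.

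Antigen presentation genes fell with the interferon genes. All 19 genes of MHC class I and peptide loading were lower, 17 of them at least 2-fold, with a median of -3.15. HLA-B, a class I heavy chain, had 187 and 200.5 CPM at 320 µM, against 2350.2 and 2258 CPM at 10 µM and 85.3 and 90.5 CPM in control (log2 change -3.57 ± 0.05). Both 320 µM sums of HLA-B thus lay above control and below 10 µM. Reads can be exchanged between HLA genes, so single HLA values are uncertain. B2M, the shared light chain, had 1297 and 1257 CPM at 320 µM and 5297 and 5024 CPM at 10 µM. PSMB9, an immunoproteasome subunit, had 11.3 and 10.1 CPM at 320 µM and 427 and 375 CPM at 10 µM, and the peptide transporter gene TAP1 had 4.24 and 5.01 CPM at 320 µM and 181 and 168 CPM at 10 µM. Of 10 class II genes 5 were tested and all 5 fell, with a median of -4.99, or -2.64 with the 3 members of very few UMIs bounded. With equal cell numbers 3 were tested and 2 fell. The 10 genes summed to 3.78 and 6.52 CPM at 320 µM and 88.7 and 66.8 CPM at 10 µM. Genes could pass the filter through the 10 µM sums alone. CD74, the class II invariant chain, had 3 UMIs in each 320 µM sum and 242 and 196 UMIs at 10 µM.

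Genes of NF-kB and its secreted products fell as well. In the list of NF-kB subunits and feedback inhibitors 21 of 22 fell, with a median of -2.10. NFKBIA, the inhibitor that NF-kB itself induces, had 149 and 132 CPM at 320 µM, against 960.4 and 879 CPM at 10 µM and 191 and 200.2 CPM in control (log2 change -2.71 ± 0.06). TNFAIP3, a ubiquitin-editing inhibitor of the same pathway, averaged 3.46 ± 0.616 CPM at 320 µM and 58.2 ± 1.66 CPM at 10 µM (SD, n = 2). The subunit RELA differed little, with 39.4 and 35.4 CPM at 320 µM and 60.9 and 61.3 CPM at 10 µM (log2 change -0.71). ICAM1, a leukocyte adhesion receptor, had 2.41 and 2.33 CPM at 320 µM and 137 and 135 CPM at 10 µM.

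Of 24 tested chemokines and cytokines 23 fell, each by at least 2-fold, with a median of -4.97, or -4.61 with the 6 members of very few UMIs bounded. For these 6 a fall could be fixed by the filter, so the count of 23 overstates the result. CXCL10, an interferon-induced attractant of T cells (GRCh38 chr4:76021117-76023497), had 2.29 and 3.61 CPM at 320 µM, against 719.5 and 851 CPM at 10 µM and 3.40 and 3.56 CPM in control (log2 change -8.05 ± 0.14). CXCL1, which attracts neutrophils, had 9.17 and 7.92 CPM at 320 µM and 1072 and 1061 CPM at 10 µM (log2 change -6.96 ± 0.08). CXCL8, or interleukin 8, had 7.80 and 8.27 CPM at 320 µM and 599 and 612 CPM at 10 µM. The 320 µM and control sums of these chemokines were of like size, and every 10 µM sum stood far above. CCL20, an attractant of lymphocytes and dendritic cells, had 5.96 and 7.92 CPM at 320 µM and 986 and 1179 CPM at 10 µM. The cytokine genes TNF and IL6 were lower too, with TNF at 2.98 and 1.40 CPM at 320 µM and 77.1 and 87.7 CPM at 10 µM. LTB, a membrane cytokine of the TNF family, had 1.26 and 2.91 CPM at 320 µM and 381 and 369 CPM at 10 µM.

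Transcripts of single genes were spread unevenly over cells. In thinned cells CXCL1 was detected in 4.0% and 3.6% of cells at 320 µM and in 61.5% and 62.6% at 10 µM. CXCL10 was detected in 0.69% and 1.0% of cells at 320 µM and in 26.0% and 30.7% at 10 µM, and in the 10 µM sums the 10 cells richest in it held 54.7% and 42.2% of its UMIs. The 10 richest 10 µM cells held 23.6% and 25.5% of CXCL1 UMIs, 50.7% and 27.2% of those of the interferon effector RSAD2, and 13.8% and 15.1% of those of ISG15.

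NF-kB promoters are given for CXCL1, CXCL10 and NFKBIA, picked from the described members that hold the letters, with matches to GGGNNNTTCC in capitals. TNFAIP3, CCL20 and IL6 also held them, while CXCL8, TNF, LTB, ICAM1 and RELA were not among the genes found with them.
CXCL1 (chr4:73869290-73869349, plus strand): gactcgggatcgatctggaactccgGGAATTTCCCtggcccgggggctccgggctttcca
CXCL10 (chr4:76023640-76023699, minus strand): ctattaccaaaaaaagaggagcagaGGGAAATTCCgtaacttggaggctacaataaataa
NFKBIA (chr14:35404796-35404855, minus strand): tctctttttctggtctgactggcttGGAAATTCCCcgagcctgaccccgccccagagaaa
The capitals of CXCL1 and NFKBIA mark a match on the opposite strand, and the CXCL1 window holds 2 matches that overlap. The letters were found in 10 of 19 chemokine and cytokine genes with a window (52.6%) and in 11 of 19 genes of the NF-kB list (57.9%), against 10.0% of tested genes with a window.

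Of 24 tested acute-phase and innate secreted proteins 23 fell, with a median of -5.60, or -5.14 with the 4 members of very few UMIs bounded. These 4 carry the same limit of the filter. SLPI, a secreted protease inhibitor of mucosal surfaces, had 439 and 404 CPM at 320 µM, against 11698 and 9531 CPM at 10 µM and 362 and 351 CPM in control (log2 change -4.66 ± 0.11). PI3, which encodes the protease inhibitor elafin, had 4.01 and 4.42 CPM at 320 µM and 811 and 637 CPM at 10 µM. LCN2, which withholds iron from bacteria, had 2.98 and 2.91 CPM at 320 µM and 516 and 398 CPM at 10 µM. C3, the central complement component, had 7 and 4 UMIs at 320 µM and 126 and 135 CPM at 10 µM.

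Several of the largest falls among genes of at least 50 CPM rested on few UMIs at 320 µM. SAA1, an acute-phase apolipoprotein, had 6 and 3 UMIs at 320 µM and 649 and 697 UMIs at 10 µM, 322 times higher at 10 µM (exact 95% counting interval 169 to 706). Its near copy SAA2 had 1 and 4 UMIs at 320 µM and 309 and 304 UMIs at 10 µM, and reads can be exchanged between these genes. HP, or haptoglobin, had 1 UMI in each 320 µM sum and 318 and 231 UMIs at 10 µM, and the 10 richest cells held 69.8% and 93.5% of those. S100A9, a subunit of calprotectin, had 4 and 3 UMIs at 320 µM and 300 and 1392 UMIs at 10 µM. One cell of pool 2 held 851 of the 1392. Its partner S100A8 had 0 and 4 UMIs at 320 µM and 30 and 516 UMIs at 10 µM, so its fall differed strongly between pools. The call of S100A8 was lost without either 320 µM sum (edgeR, Benjamini-Hochberg adjusted p = 0.108 without pool 1 and 0.0985 without pool 2), in listed cells, in thinned sums, with equal cell numbers and with the 4 persister sums alone. S100A9 lost its call with the 4 persister sums alone (adjusted p = 0.0709).

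**Figure D3:**
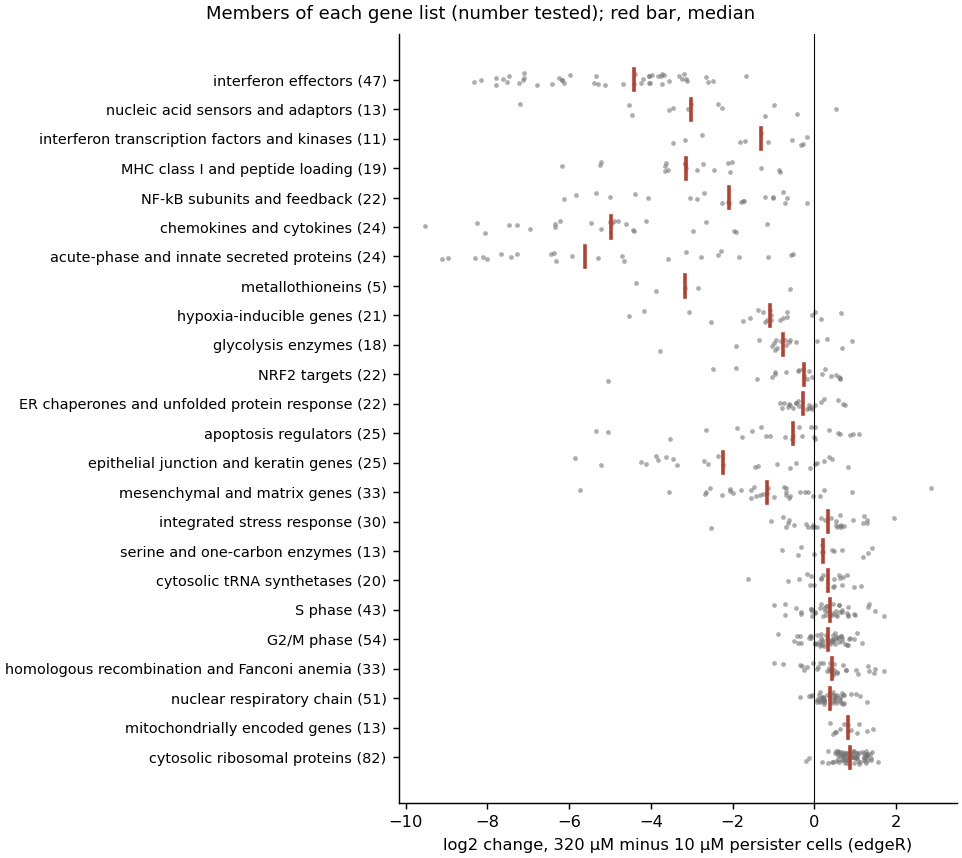
Log2 change of 320 µM over 10 µM persister cells for the tested members of 24 gene lists, 1 point per gene, with the number tested in parentheses, a red bar at the median and a line at 0. The interferon, NF-kB, chemokine and acute-phase lists lie left of 0 apart from 1 sensor, MAVS,, and the ribosomal, mitochondrial and respiratory lists lie mostly right of it.

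Metal-binding and redox genes gave mixed results. All 5 tested metallothioneins, small proteins that bind zinc and copper, fell, with a median of -3.18, or -1.997 with the 2 members of very few UMIs bounded. MT2A had 209 and 219 CPM at 320 µM, against 3169.8 and 3097 CPM at 10 µM and 913 and 967 CPM in control (log2 change -3.87 ± 0.04), with the limit that metallothionein genes resemble each other and can exchange reads. FTH1, the ferritin heavy chain, had 19689 and 18647 CPM at 320 µM, against 39598 and 38989.9 CPM at 10 µM and 5086 and 5044 CPM in control (log2 change -1.04 ± 0.03). Both doses thus stood above control, the lower dose more so, though reads of FTH1 pseudogenes can be mixed in. Of 22 tested targets of the oxidative stress factor NRF2, 5 rose and 11 fell, with a median of -0.26. NQO1, a quinone reductase, had 127 and 113 CPM at 320 µM and 244 and 225 CPM at 10 µM, and AKR1B1, an aldose reductase, had 189 and 170.1 CPM at 320 µM and 1033 and 984 CPM at 10 µM (log2 change -2.49). The cystine transporter gene SLC7A11 had 36.1 and 38.0 CPM at 320 µM and 37.9 and 38.9 CPM at 10 µM and was not called (log2 change -0.05, edgeR, Benjamini-Hochberg adjusted p = 0.71).

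Genes of low oxygen and of glucose use were lower at 320 µM. Of 21 tested hypoxia-inducible genes 17 fell and 1 rose, with a median of -1.10, and of 18 glycolysis enzymes 14 fell and 3 rose, with a median of -0.77. BNIP3, a receptor for mitophagy, had 102 and 103 CPM at 320 µM, against 322 and 290.0 CPM at 10 µM and 82.5 and 82.8 CPM in control. SLC2A1, the glucose transporter GLUT1, had 64.8 and 61.5 CPM at 320 µM and 215 and 212 CPM at 10 µM (log2 change -1.76). LDHA, the A chain of lactate dehydrogenase, had 214 and 222 CPM at 320 µM, below the 383 and 392 CPM of control, and 910.1 and 738 CPM at 10 µM.

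Fewer genes were strongly higher at 320 µM. TPPP3, a tubulin-polymerising protein (GRCh38 chr16:67389809-67393535), made the largest rise among genes of at least 50 CPM, with 217 and 219 CPM at 320 µM, against 9.80 and 8.41 CPM at 10 µM and 6.59 and 6.32 CPM in control (log2 change 4.58 ± 0.11, edgeR, Benjamini-Hochberg adjusted p = 1.4e-24). It was detected in 40.6% and 42.5% of thinned 320 µM cells and in 3.3% and 2.9% of 10 µM cells. DCXR, a reductase of sugars and carbonyls, had 267 and 266 CPM at 320 µM, against 44.9 and 51.2 CPM at 10 µM and 154 and 151 CPM in control (log2 change 2.47). RGS16, which shortens G protein signalling, had 50.9 and 53.6 CPM at 320 µM and 8.51 and 10.3 CPM at 10 µM (log2 change 2.47). TM7SF2, a sterol reductase of cholesterol synthesis, had 133 and 137 CPM at 320 µM and 32.8 and 26.4 CPM at 10 µM, with 162 and 168 CPM in control. CLGN, a chaperone of the endoplasmic reticulum, had 126 and 119 CPM at 320 µM and 39.2 and 25.9 CPM at 10 µM.

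Inhibitors of DNA binding, ID proteins that block basic helix-loop-helix factors and are induced by bone morphogenetic protein signals, rose together. ID2 had 148 and 120.3 CPM at 320 µM, against 18.3 and 23.8 CPM at 10 µM and 56.6 and 57.2 CPM in control (log2 change 2.67 ± 0.12). ID1 had 1392 and 1295 CPM at 320 µM and 664 and 607 CPM at 10 µM, with 1532 and 1474 CPM in control. ID3 and ID4 rose by log2 changes of 1.38 and 1.99. For all 4 the 10 µM sums were below both control sums, and for ID2 the 320 µM sums were above them.

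Of 30 integrated stress response genes 24 were called above control at each dose. The share of all tested genes called above control was not counted, so this count has no background. Over all tested genes the medians against control were -0.01 at 320 µM and -0.03 at 10 µM. Of the same 30 genes 15 rose and 6 fell at 320 µM relative to 10 µM, with a median of 0.34, and the medians against control were 1.32 at 320 µM and 1.16 at 10 µM, from comparisons that share the control sums. ASNS, which makes asparagine, had 137 and 133 CPM at 320 µM, against 27.9 and 42.0 CPM at 10 µM and 19.2 and 18.4 CPM in control (log2 change 1.94 ± 0.10). TRIB3, a pseudokinase that restrains ATF4, rose by a log2 change of 1.28 ± 0.12, and CHAC1, which degrades glutathione, had 46.4 and 50.2 CPM at 320 µM and 21.7 and 20.2 CPM at 10 µM. ATF4 itself had 169 and 160.1 CPM at 320 µM and 156 and 173 CPM at 10 µM (log2 change 0.00 ± 0.06). The sums of ATF4 overlapped. DDIT3, the death-promoting factor CHOP, went the other way, with 82.7 and 68.7 CPM at 320 µM and 129 and 103 CPM at 10 µM (log2 change -0.61 ± 0.11, edgeR, Benjamini-Hochberg adjusted p = 6.6e-04).

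Composite C/EBP-ATF letters TGATGNAA, the kind of element that ATF4 binds with C/EBP partners, are in capitals in these promoters.
ASNS (chr7:97872444-97872501, minus strand): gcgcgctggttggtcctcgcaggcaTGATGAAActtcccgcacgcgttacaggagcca
CHAC1 (chr15:40953237-40953294, plus strand): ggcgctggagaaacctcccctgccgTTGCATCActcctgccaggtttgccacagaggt
The match of CHAC1 is on the opposite strand. The letters stood in 9 of 26 integrated stress response genes with a window (34.6%) and in 2.84% of tested genes with one.

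Serine synthesis rose as a block of enzymes, while the folate enzymes downstream did so less. All 3 steps from glycolysis to serine were higher: PHGDH had 267 and 249 CPM at 320 µM and 103 and 104 CPM at 10 µM, PSAT1 had 331 and 329 CPM at 320 µM and 121 and 125 CPM at 10 µM, and PSPH had 86.9 and 98.4 CPM at 320 µM and 39.7 and 40.8 CPM at 10 µM. Their log2 changes were 1.31 ± 0.06, 1.42 ± 0.05 and 1.20 ± 0.09. In each the 10 µM sums were below both control sums, and the 320 µM sums above. The mitochondrial enzymes MTHFD2 and SHMT2 gave 0.43 and -0.00, so that over 13 serine and one-carbon enzymes 7 rose and 3 fell, or 1 fell without either pool 2 sum. Of 20 cytosolic tRNA synthetases 10 rose and 3 fell, with a median of 0.33. WARS, the tryptophan enzyme, which interferon gamma is known to induce, went down with the interferon genes, with 60.9 and 59.6 CPM at 320 µM and 177 and 196 CPM at 10 µM. In the list of 22 endoplasmic reticulum chaperones and related genes 2 rose and 11 fell, among them the lectin chaperone CALR (log2 change -0.85).

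**Figure D4:**
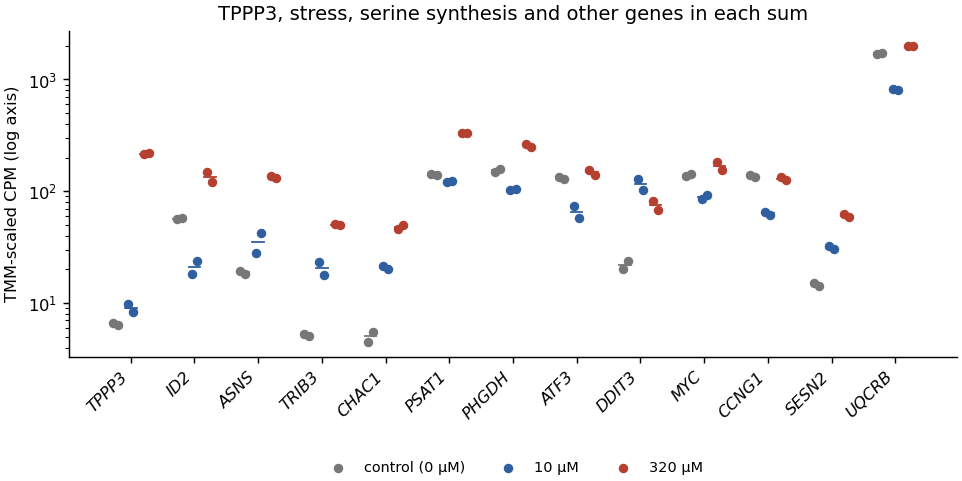
Level of TPPP3, stress, serine synthesis and other genes in each sum, in TMM-scaled CPM on a log axis, for control (grey), 10 µM (blue) and 320 µM (red) cells, 2 sums each, with a bar at the mean. The 320 µM sums lie above the 10 µM sums for every gene shown except DDIT3.

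Ribosomal protein and respiration genes were higher at 320 µM than at 10 µM in relative terms, and the larger departure from control was at 10 µM. Of 82 tested cytosolic ribosomal proteins 79 rose and 2 fell, with a median of 0.86, all 13 mitochondrially encoded genes rose, with a median of 0.82, and 40 of 51 nuclear genes of the respiratory chain rose and 2 fell, with a median of 0.38. Of 28 nucleolar and ribosome biogenesis genes 6 rose and 11 fell, with a median of -0.05. Against control the ribosomal protein median was -0.02 at 320 µM and -0.93 at 10 µM. For nuclear respiratory genes it was -0.06 and -0.35, and for mitochondrially encoded genes 0.15 and -0.52. Both comparisons share the control sums. MT-CYB, of respiratory complex III, had 15382 and 15391 CPM at 320 µM, against 6449 and 6136 CPM at 10 µM and 14185 and 13614 CPM in control (log2 change 1.29 ± 0.03). Both 320 µM sums of MT-CYB were above control, and both 10 µM sums were below it. CPM are shares of a sum, so more of these transcripts and fewer of the others cannot be told apart.

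Cell cycle differences were small, and the difference in phase shares changed direction with thinning. In thinned cells 21.9% and 24.6% at 320 µM had an S or G2/M call, against 19.0% and 21.8% at 10 µM and 55.0% and 54.1% of control cells. The mean difference between doses was 2.77 percentage points (exact two-sided permutation test, p = 0.33, the smallest that 2 sums against 2 can give). Without thinning, the shares averaged 23.0% at 320 µM and 23.7% at 10 µM, so the direction turned. Over all cells 23 of 43 S phase genes rose and 4 fell, with a median of 0.39, and 29 of 54 G2/M genes rose and 6 fell, with a median of 0.34. Without the 10 µM sum of pool 2 only 14 S phase genes were called higher. Listed cells, a deposited subset, hold 78.7% and 74.9% of 320 µM cells and 75.3% and 76.0% of 10 µM cells. Among them 5 S phase genes rose and 8 fell (median -0.07), and 9 G2/M genes rose and 17 fell (median -0.23). The subset holds only 42.3% and 43.5% of control cells, where S or G2/M calls were more common. The name of the list contains g1, so its cells may have been picked by phase. Fewer rises of cycle genes would then be fixed in advance, so listed cells cannot test these differences. MKI67, a proliferation marker, had 47.3 and 47.7 CPM at 320 µM and 31.7 and 38.0 CPM at 10 µM (log2 change 0.44). In listed cells its change was -0.61, with the same limit.

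Of 33 genes of homologous recombination and the Fanconi anemia pathway 16 rose (7 of them at least 2-fold) and 1 fell, with a median of 0.44, but only 2 rose and 3 fell among listed cells, and 9 rose without the 10 µM sum of pool 2. Against control the median of these 33 genes was -0.60 at 320 µM and -0.88 at 10 µM. At each dose 25 of them were called below control, and 2 were called above it at 320 µM and 0 at 10 µM. The list was thus less reduced at 320 µM, not raised over control. The limit of listed cells given above holds here too, so they do not decide whether the rises of this list hold. XRCC2, one of the 7 genes that rose at least 2-fold, had 11.9 and 12.7 CPM at 320 µM and 6.45 and 5.29 CPM at 10 µM (log2 change 1.07 ± 0.20). PARP1 had 218 and 216 CPM at 320 µM, against 176 and 172 CPM at 10 µM and 323 and 314 CPM in control (log2 change 0.32 ± 0.05). Both PARP1 sums at 320 µM lay above both at 10 µM, as in 5068 of 13330 tested genes. PARP2 had 21.4 and 21.5 CPM at 320 µM and 20.4 and 20.2 CPM at 10 µM (log2 change 0.08, edgeR, Benjamini-Hochberg adjusted p = 0.63). BRCA2 had 9.86 and 10.9 CPM at 320 µM and 16.0 and 10.8 CPM at 10 µM (log2 change -0.36, adjusted p = 0.098), and was called lower in listed cells (-1.53) and without the 10 µM sum of pool 2 (-0.62). ABCB1, an efflux pump that exports olaparib, had 0 UMIs in all 4 sums, so a difference below the floor of 3 UMIs was not detectable at this depth. CDKN1A, the p53-induced cyclin kinase inhibitor p21, had 46.1 and 56.8 CPM at 320 µM and 29.7 and 28.8 CPM at 10 µM (log2 change 0.81), while of 24 tested p53 targets 11 rose and 4 fell, with a median of 0.11.

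Cell death and cell shape genes went mostly with the inflammatory ones. Of 25 tested apoptosis regulators 3 rose and 14 fell, with a median of -0.53. BID, a mitochondrial death activator, had 22.5 and 24.6 CPM at 320 µM and 151 and 144 CPM at 10 µM, and the inflammatory caspase gene CASP4 had 10.4 and 10.9 CPM at 320 µM and 135 and 112 CPM at 10 µM. Of 25 epithelial junction and keratin genes 4 rose and 16 fell (median -2.23, or -1.65 without the 10 µM sum of pool 2), and of 33 mesenchymal and matrix genes 2 rose and 22 fell (median -1.16). FN1, or fibronectin, had 12.6 and 16.1 CPM at 320 µM, against 716 and 812 CPM at 10 µM and 14.1 and 14.3 CPM in control (log2 change -5.74 ± 0.08). KRT7, a simple epithelial keratin, had 3.21 and 4.54 CPM at 320 µM and 64.2 and 82.2 CPM at 10 µM. Summed markers of fibroblasts were 41.3 and 35.5 CPM at 320 µM and 41.3 and 38.2 CPM at 10 µM. Summed markers of mesothelial cells were 101 and 105 CPM at 320 µM and 178 and 185 CPM at 10 µM, with CALB2, HAS1 and PRG4 at 0 in all 4 sums, and those of endothelial cells were 4.01 and 3.49 CPM at 320 µM and 9.80 and 20.7 CPM at 10 µM. The part of these markers in the FN1 and mesenchymal differences was not tested. Of 38 autophagy and lysosome genes 10 rose and 13 fell, and SQSTM1, a cargo receptor of autophagy, had 382 and 393 CPM at 320 µM and 1445 and 1374 CPM at 10 µM.

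Whether the dose difference was that of adapted cells was tested with an interaction term, since adapted cells were sampled at the same doses. It was called higher in persister cells for 3453 genes (25.9%) and lower for 3124 (23.4%). Of the 47 interferon effectors 45 had a lower dose difference in persister than in adapted cells, and 1 had a higher one. That gene, BST2, which tethers virus to the cell surface, had 172 and 178 CPM at 320 µM and 1099.9 and 1034 CPM at 10 µM in persister cells, and 17.0 and 15.6 CPM at 320 µM and 310.1 and 308 CPM at 10 µM in adapted cells. ISG15 had 132 and 130.1 CPM at 320 µM and 165 and 168 CPM at 10 µM in adapted cells, so its dose difference was -0.34 there and -5.29 in persister cells. Among class I genes 18 of 19 were lower in the interaction and 0 higher, and HLA-B had 354 and 348 CPM at 320 µM and 267 and 276 CPM at 10 µM in adapted cells. ASNS had 93.8 and 95.7 CPM at 320 µM and 89.7 and 90.4 CPM at 10 µM in adapted cells, which left a difference of 1.87 in its dose effects. The integrated stress response list went mostly the other way. Of its 30 genes 8 were higher and 15 lower in the interaction, with a median of -0.47.

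**Figure D5:**
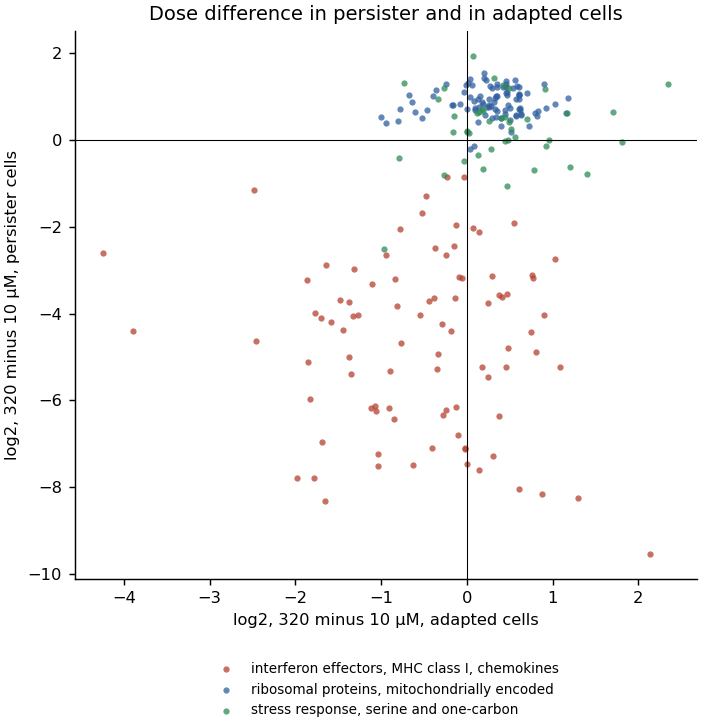
Log2 change of 320 µM over 10 µM in persister cells (vertical) against that in adapted cells (horizontal), 1 point per tested gene of the interferon effector, class I and chemokine lists (red), ribosomal and mitochondrially encoded genes (blue) and the stress response and serine lists (green). Every red point lies below 0 on the vertical axis, while red points fall on both sides of 0 on the horizontal axis.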

How the data were processed

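Single cells were made with 10x Genomics 3′ chemistry and hashtag antibodies, 5 conditions in each of 2 pools, per the labels' protocols. The authors deposited raw UMI counts of 19893 genes in 13800 cells. The submitters' processing notes name Cell Ranger 3.1, Seurat and GRCh38, without a role. The sources used here give no filters on cells or doublets, no doublet caller was run, and the most UMIs in a persister cell were 20334 in pool 1 and 24458 in pool 2 at 320 µM, and 20194 and 24436 at 10 µM. A further deposited list of cells, whose name contains g1 without a stated meaning, was used as an alternative. If g1 stands for the cell cycle phase, the list cannot test cell cycle genes.

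Counts were summed per condition and pool, filtered with filterByExpr, scaled with trimmed mean of M-values and fitted over all 10 sums with edgeR 4.0.16 in R 4.3.3 (robust quasi-likelihood, 5 residual degrees of freedom). Scripts were tested on simulated data. The only spread behind each p-value is that between pools, possibly technical. Pool numbers pair the sums, since pool differences correlated at 0.332 to 0.606 across 2730 genes in every pair of conditions. The replicates of 320 µM differed by 2.18 and of 10 µM by 3.37 chi-square per degree of freedom. Phases used scanpy 1.11.5 after thinning to 3000 UMIs, which left out 15 and 20 cells at 320 µM and 27 and 25 at 10 µM. Alternatives were DESeq2 1.42.0, library totals alone, other filters, the 4 persister sums alone, the pool block, each persister sum left out, listed cells, thinned sums and equal cell numbers. Leaving out ribosomal protein and mitochondrial genes was added after seeing the data.

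Genes named were the 15 largest called rises and falls of at least 50 CPM with no overlap of sums, up to 4 members of lowest p per list with at least 20 CPM, and fixed genes; others were named for their role after their values were seen. Members and lists were chosen with earlier results of these data known. Positions are from GENCODE on GRCh38, promoters from RefSeq on GRCh38.p14. Genes with at most 3 UMIs in a sum are given as UMIs. Some genes that the rule names are not reported here.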

Additional observations from a re-analysis of the deposited data

Results flagged for a closer look

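For 10 of 39 genes compared, the dose difference was called in opposite directions in persister and adapted cells, and the interaction was past the test (edgeR, Benjamini-Hochberg). The 39 were the 15 largest rises, the 15 largest falls and the fixed genes, so most were chosen by their persister difference. The share over all tested genes was not counted, so 10 of 39 has no background. The difference between the dose effects, persister minus adapted, on the log2 scale was 5.83 for TPPP3 (4.58 in persister and -1.25 in adapted cells), 4.52 for TM7SF2 (2.20 and -2.32), 4.04 for ABLIM1, an actin-binding protein (2.10 and -1.95), and 4.97 for SLIT3, a guidance ligand (2.09 and -2.88). It was 2.08 for SESN3, a stress-induced inhibitor of mTORC1 (1.92 and -0.16), and 0.73 for PARP1 (0.32 and -0.41). In the other direction it was -9.41 for SAA1 (-8.31 and 1.10), -9.43 for SAA2 (-8.00 and 1.42), -2.86 for FTH1 (-1.04 and 1.82) and -1.82 for DDIT3 (-0.61 and 1.21). The SAA1 and SAA2 values rest on at most 6 UMIs in a 320 µM persister sum, and the persister change of SAA2 was -7.33 without the 320 µM sum of pool 1 and -9.26 without that of pool 2. No cause was tested.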

How the results depend on the processing

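The number of genes called between the doses (6624) was 5109 to 6855 over the alternatives, and lay within 1.5 times in each. With the pool as a replicate block it was 6855 (3488 higher and 3367 lower), and the interaction gave 6902 genes. The block changed no call of a named gene. Leaving out a persister sum gave 5496 to 5873 genes (2734 to 3045 higher and 2761 to 2876 lower), and 5860 to 6030 for the interaction (3119 to 3213 higher and 2741 to 2871 lower). With equal cell numbers the interaction gave 3999 genes (2082 higher and 1917 lower), from fewer cells. Library totals alone gave 2944 genes higher and 3607 lower, and DESeq2 2622 and 2968. Of 2554 values for 183 gene results, 2532 kept direction and side of the threshold, 15 lost the call, 6 gained one, and MKI67 in listed cells reversed, to -0.61 (edgeR, Benjamini-Hochberg adjusted p = 0.187). The limit of listed cells given above holds for this change of MKI67. Of 1256 list counts 85 moved by over 1.5 times. The phase difference was -0.66 points without thinning and 3.16 at 2000 UMIs. The 10 µM sums are the shallowest and limit low genes.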
